A study of Mus musculus with 9 samples.

Results

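The 37 genes described here carry peptide antigen from the cytosol to the cell surface: MHC class I chains, the genes that load peptide onto them, and the subunits of the proteasome that cuts the peptides. They are the rows of the deposited FPKM table whose gene name equals a name on a fixed list, and all 37 were found among 46078 genes. The rule goes by name and uses no measured value, but the list was drawn up with earlier results of these data known. By role they comprise 9 class I chains (8 heavy chains and the light chain B2m), 8 peptide loading genes, the transactivator Nlrc5, 5 genes of the immunoproteasome and its PA28 cap, and 14 subunits of the constitutive 20S proteasome. All cultures came from the inbred mouse strain C57BL/6J and had been kept for at least 8 weeks. BMM were macrophages from bone marrow, whose medium and donor age are not given in the sources used here. FLM_M and FLM_G were grown from livers of fetuses at gestational day 15 to 19, FLM_M in medium with 30% supernatant of L cells, which supplies M-CSF, and 20% serum, and FLM_G in 30 ng/ml GM-CSF with 10% serum. The media of the fetal cultures thus differed in serum as well as in growth factor. Each group has 3 libraries, from wells seeded with 250000 cells in triplicate 1 day before harvest. The labels do not say whether the wells came from different cultures or animals, and p-values here reflect the variation among these libraries alone, some or all of which may be technical.

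MHC class I molecules show peptides of the cell's own proteins to CD8 T cells. The peptides are cut by the proteasome, carried into the endoplasmic reticulum by the transporter Tap1-Tap2, trimmed there by Erap1 and fitted into a heavy chain paired with B2m by tapasin (Tapbp), calreticulin (Calr) and Pdia3. Interferon raises the class I chains, the transporter and the PA28 cap, and exchanges the catalytic subunits Psmb5, Psmb6 and Psmb7 of the 20S particle for Psmb8, Psmb9 and Psmb10, which gives the immunoproteasome. Nlrc5 is the transactivator of class I genes and acts through a module of short elements in their promoters.

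The FPKM (fragments per kilobase of transcript, corrected for the size of the library) were brought to a common scale between libraries with TMM factors and are called scaled FPKM. Steps in the low values put the libraries at 28390000 to 35470000 reads. Libraries of 1 group correlated at 0.986 to 0.992 over genes and libraries of different groups at 0.785 to 0.936. All 8 macrophage markers reached 5 scaled FPKM in each group. Summed markers of hepatocytes, erythroid cells, stroma, and B and T cells stayed at or under 2.94 scaled FPKM in every library. The summed dendritic cell list ran from 0.213 to 0.255 in BMM, 0.380 to 0.520 in FLM_M and 2.13 to 3.08 in FLM_G, and the FLM_G sum was mostly Clec9a (2.07 to 2.99, against 0.0356 to 0.0661 in BMM). The other 5 dendritic markers, Flt3 and Zbtb46 among them, stood at 0.353 or less in every library. The summed neutrophil list was 2.65 to 3.35, 9.51 to 12.3 and 49.7 to 56.6 in the same order, in the fetal cultures all from S100a8, with the other 4 markers at 0. The summed endothelial list was 1.36 to 1.47, 6.43 to 8.36 and 4.23 to 4.43, mostly Kdr in FLM_M and Cdh5 in FLM_G. The part of these other cell markers in the results was not tested. BMM libraries expressed Ddx3y (8.47 to 10.4) and the fetal cultures Xist (41.3 to 74.3), so the sex of the source and the culture cannot be told apart in comparisons with BMM. In RNA from a whole well, fewer cells expressing a gene and less RNA per cell cannot be told apart either.

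Promoter sequences of 31 of the 37 members were found in the RefSeq table (GRCm38.p6, 250 bases before to 50 after the start). Those of Tap2, Tapbpl, Nlrc5, Psmb1, Psmb2 and Psmb7 were not found. The upstream stretches of H2-K1, H2-D1, H2-Q4 and B2m are shown first because 3 of these genes carry most class I RNA and H2-Q4 had the largest changes of the heavy chains that stood above 5 scaled FPKM in every library. Each runs 5′ to 3′ from base -200 to -1 before the start, and capitals mark matches on either strand to a kappa B motif (GGG, any 2 bases, T, any 2 bases, CC), the core of the interferon-stimulated response element (GAAA, any 2 bases, GAAA), the TGACG core of the X2 box and CCAAT. The H2-K1 stretch lies on the minus strand at chr17:34000348-34000547, H2-D1 on the plus strand at chr17:35262894-35263093, H2-Q4 on the plus strand at chr17:35379417-35379616 and B2m on the plus strand at chr2:122147487-122147686.
H2-K1: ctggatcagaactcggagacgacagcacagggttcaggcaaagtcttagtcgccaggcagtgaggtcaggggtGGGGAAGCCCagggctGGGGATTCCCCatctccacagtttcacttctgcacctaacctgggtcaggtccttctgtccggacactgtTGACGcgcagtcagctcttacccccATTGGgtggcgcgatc
H2-D1: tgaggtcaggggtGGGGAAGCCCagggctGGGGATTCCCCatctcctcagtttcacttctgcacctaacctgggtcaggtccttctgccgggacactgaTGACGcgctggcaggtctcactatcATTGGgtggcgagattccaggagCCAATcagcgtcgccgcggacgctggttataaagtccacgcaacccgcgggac
H2-Q4: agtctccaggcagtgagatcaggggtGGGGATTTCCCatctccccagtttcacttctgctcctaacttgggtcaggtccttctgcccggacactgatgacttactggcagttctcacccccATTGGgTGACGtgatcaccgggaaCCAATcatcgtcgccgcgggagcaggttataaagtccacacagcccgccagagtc
B2m: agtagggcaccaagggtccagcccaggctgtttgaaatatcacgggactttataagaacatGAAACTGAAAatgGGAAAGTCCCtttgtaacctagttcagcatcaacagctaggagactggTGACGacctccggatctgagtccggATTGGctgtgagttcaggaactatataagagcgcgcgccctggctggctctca
In the full 300-base windows a kappa B match was present in 8 of the 9 class I chains (all but H2-T23), 2 of 6 peptide loading genes with a promoter, 2 of 5 immunoproteasome genes and 0 of 11 constitutive subunits, against 18.4% of all 32851 promoters. CCAAT was present in all 9 class I chains, 5 of 6 loading genes, 1 of 5 immunoproteasome genes and 6 of 11 constitutive subunits, against 37.4% of all promoters. TGACG was found in 7, 3, 2 and 7 members of the same groups, against 20.8% of promoters, and the response element core in 3, 1, 1 and 1, against 3.44%. That core is a strict pattern. The stretches of H2-K1, H2-D1 and H2-Q4 hold the unmarked letters TTTCACTTCT, close to its other-strand form (TTTC, any 2 bases, TTTC). A promoter without a match can thus still hold a variant of the element. The heavy chain genes are close relatives, so their promoters share sequence and do not count as separate cases. Kappa B matches can overlap each other when 1 site fits both strands or a shifted frame. A match describes letters in this window and is not a measured binding site.

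In FLM_M, transcripts of antigen presentation stood higher than in BMM across all the roles except the constitutive 20S proteasome and the general chaperones. Of the 37 members, 22 rose and 6 fell in FLM_M against BMM (limma, Benjamini-Hochberg adjusted p under 0.05), beside 22.7% of all 11952 tested genes that rose and 21.9% that fell (44.6% in either direction). The members' median log2 fold change was 0.49, and that of all tested genes -0.00145. The members divided in FLM_G against BMM, with 8 higher and 15 lower, where 33.8% of all tested genes were higher and 34.1% lower (68% in either direction), and their median was -0.07. Between the fetal cultures 3 members were higher and 23 lower in FLM_G than in FLM_M, where 35.5% of all tested genes were higher and 35.1% lower (70.6% in either direction), and the members' median was -0.41. The 3 comparisons share libraries pairwise and are given side by side only.

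Scaling bears on every comparison with FLM_G. Without it the median of all tested genes lies 0.34 lower on the log2 scale in FLM_G than in BMM (log2 -0.3414) and 0.39 lower than in FLM_M (log2 -0.3887), while FLM_M against BMM shifts by 0.05. The FLM_G against BMM split of members became 1 higher and 30 lower without scaling, and 1 higher and 24 lower under quantile normalization. For FLM_G against FLM_M it became 0 higher and 35 lower without scaling. Under all 5 scalings tried (TMM, RLE, upper quartile, none and quantile normalization) the same 22 members were called higher in FLM_M than in BMM, the same 15 members lower in FLM_G than in BMM, and the same 23 lower in FLM_G than in FLM_M. No member was called higher in FLM_G under all 5. The share of all tested genes called was computed with TMM scaling only. Counts of members under the other scalings therefore have no such share beside them and do not set the members apart from other genes. The plot of the FLM_G changes under different scalings shows each member.

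**Figure D1:**
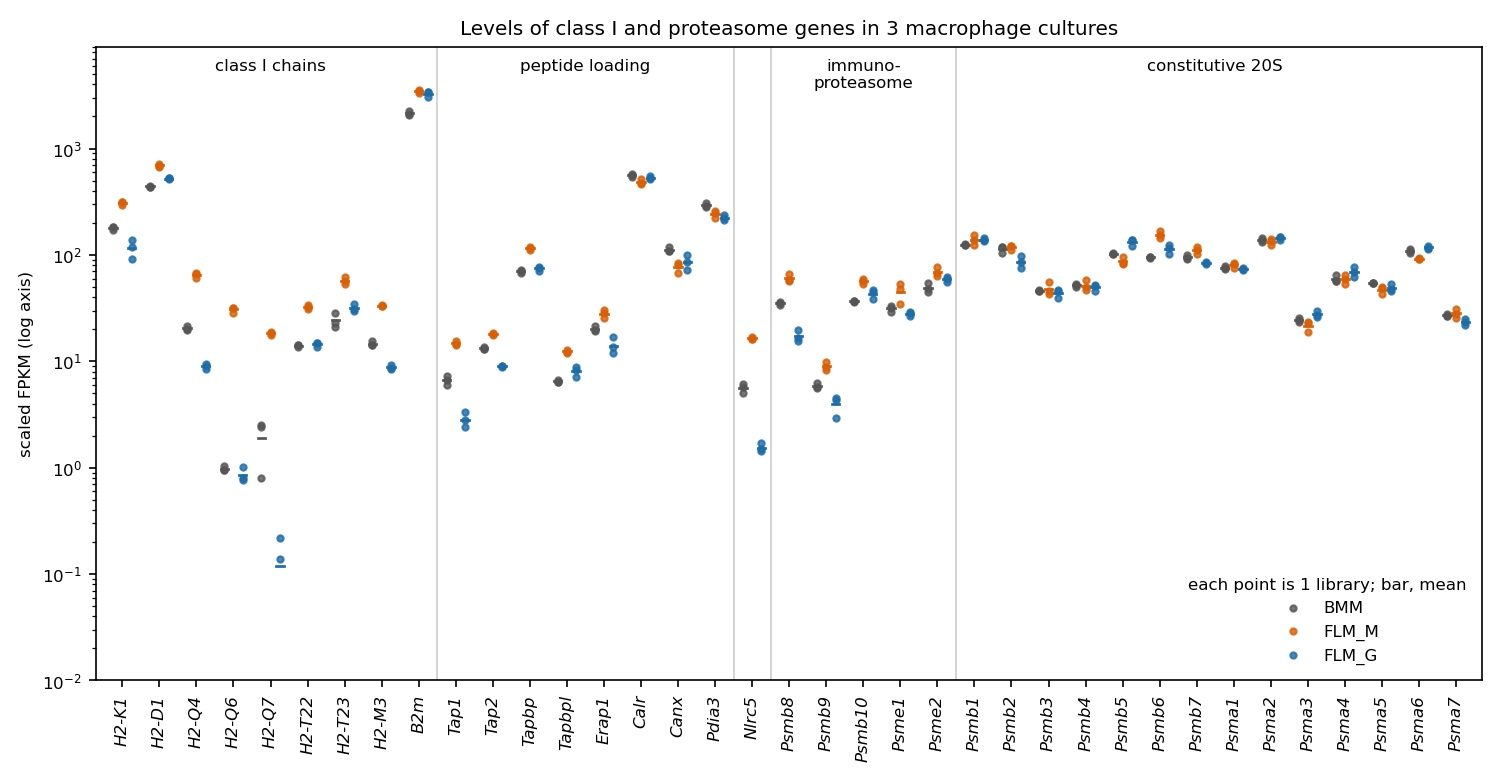
Scaled FPKM (log axis) of all 37 members, 1 point per library and a bar at the mean of each group (BMM grey, FLM_M orange, FLM_G blue), in the order of their roles; 1 FLM_G library of H2-Q7 is listed at 0 and is not drawn. FLM_M stands above BMM for all 9 class I chains. Of the 14 constitutive subunits at the right, FLM_M and BMM overlap for 8, FLM_G and BMM for 6, and FLM_G and FLM_M for 6. Overlap was not counted over all genes.

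The class I chains moved together in FLM_M. All 9 class I chains rose in FLM_M against BMM, beside 22.7% of all tested genes, with a median log2 fold change of 1.16. In FLM_G against BMM, 3 rose, 4 fell and 2 did not pass the test, with a median of -0.09, where 68% of all tested genes were called. Of these calls the 4 falls but none of the 3 rises held under all 5 scalings. Against FLM_M, 8 of the 9 were lower in FLM_G, beside 35.1% of all tested genes, and B2m did not pass the test.

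H2-K1 and H2-D1 are the classical class I molecules of this strain. H2-K1 measured 183, 172 and 182 scaled FPKM in BMM, 297, 314 and 315 in FLM_M, and 117, 91.8 and 138 in FLM_G. The 3 cultures did not overlap and ran FLM_M, BMM, FLM_G from high to low. On log2(scaled FPKM + 1), the scale of all fold changes and tests here, H2-K1 rose by 0.78 (SE 0.13, adjusted p = 0.00101) in FLM_M and fell by 0.64 in FLM_G (adjusted p = 0.00174), both against BMM. H2-D1 measured 439, 435 and 447 in BMM, 673, 723 and 688 in FLM_M, and 515, 526 and 523 in FLM_G. Its FLM_G libraries thus lay above BMM and below FLM_M with no overlap. H2-D1 rose by 0.65 (SE 0.05, adjusted p = 5.31e-06) in FLM_M, and its FLM_G value against BMM was 0.24 (adjusted p = 0.00143) with TMM scaling, but -0.18 without scaling and -0.36 under quantile normalization. A ratio within a library needs no scaling. H2-D1 over H2-K1 was 2.46 ± 0.07 (SD, n = 3) in BMM, 2.25 ± 0.06 in FLM_M and 4.63 ± 0.99 in FLM_G, so the classical pair did not move by equal amounts in FLM_G.

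The Qa genes H2-Q4, H2-Q6 and H2-Q7 encode nonclassical heavy chains. H2-Q4 measured 19.7, 20.3 and 21.4 in BMM, 60.9, 65.9 and 68.1 in FLM_M, and 8.44, 9.43 and 9.03 in FLM_G. It rose 3.17-fold in the mean in FLM_M (log2 1.62, SE 0.06, adjusted p = 9.30e-08) and fell in FLM_G (log2 -1.11, adjusted p = 3.99e-07), with no overlap between any 2 cultures. H2-Q6 measured 0.955, 1.03 and 0.960 in BMM, 28.7, 31.8 and 31.5 in FLM_M, and 0.802, 1.01 and 0.774 in FLM_G. It was near 1 in BMM and FLM_G, whose libraries overlapped (log2 -0.09, 95% interval -0.25 to 0.06). Its FLM_M mean was 31.3-fold that of BMM in scaled FPKM. On log2(scaled FPKM + 1) H2-Q6 rose by 4.00 in FLM_M (SE 0.07, adjusted p = 1.02e-09), a smaller change because of the added 1. H2-Q7 measured 2.52, 0.80 and 2.40 in BMM, 17.7, 18.9 and 18.6 in FLM_M, and 0, 0.139 and 0.218 in FLM_G. Its BMM replicate 2 lay apart from the other 2. H2-Q7 rose by 2.80 (SE 0.23, adjusted p = 1.51e-05) in FLM_M and fell by 1.32 in FLM_G (adjusted p = 0.000879). Of the 101-base stretches of the longest transcript, 10.5% of H2-Q6 and 12.8% of H2-Q7 also occur in transcripts of other genes, mostly Qa relatives, so reads of these genes could be assigned to more than 1 of them. None of the H2-K1 stretches did, and 4.60% of those of H2-D1.

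The nonclassical chains of the T and M regions rose in FLM_M by similar amounts. H2-T22, a ligand of gamma delta T cells, measured 14.1, 14.3 and 13.7 in BMM, 31.1, 32.6 and 34.1 in FLM_M, and 13.6, 14.9 and 14.9 in FLM_G. It rose in FLM_M (log2 1.16, adjusted p = 3.46e-07), while BMM and FLM_G overlapped (log2 0.04, 95% interval -0.08 to 0.17). H2-T23 (Qa-1), which shows leader peptides of other class I chains to NK receptors, measured 28.6, 21 and 23 in BMM, 53.8, 61.3 and 56.7 in FLM_M, and 30.9, 34.9 and 29.7 in FLM_G. It rose by 1.22 in FLM_M (adjusted p = 3.31e-05). Its value in FLM_G was 0.39 (adjusted p = 0.0135), -0.02 without scaling, and 0.29 with adjusted p = 0.0535 without BMM replicate 2. H2-M3, which presents formylated peptides, measured 15.5, 14.3 and 14.2 in BMM, 32.9, 34.0 and 33.2 in FLM_M, and 9.23, 8.66 and 8.39 in FLM_G. The 3 cultures of H2-M3 did not overlap, and it rose by 1.14 (adjusted p = 3.54e-07) and fell by 0.68 (adjusted p = 4.50e-06) against BMM.

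B2m, the light chain that all these heavy chains share, was the most abundant member. It measured 2247, 2118 and 2084 in BMM, 3315, 3582 and 3439 in FLM_M, and 3075, 3388 and 3402 in FLM_G. The fetal cultures overlapped each other (log2 -0.07, 95% interval -0.23 to 0.09) and lay above BMM with TMM scaling. Against FLM_M, the FLM_G value of B2m was -0.56 without scaling (adjusted p = 5.49e-05) and -1.44 under quantile normalization (adjusted p = 2.26e-07), so this overlap depended on the scaling. B2m rose by 0.68 (adjusted p = 6.87e-05) in FLM_M. Its FLM_G value against BMM was 0.61 (adjusted p = 6.22e-05) with TMM scaling, 0.19 (adjusted p = 0.0286) without scaling and -0.67 under quantile normalization. The 8 heavy chains together summed to 696 ± 14.9 scaled FPKM in BMM, 1240 ± 43.9 in FLM_M and 702 ± 19.5 in FLM_G. B2m over this sum, which needs no scaling, was 3.2, 3.12 and 2.95 in BMM, 2.78, 2.80 and 2.76 in FLM_M, and 4.42, 4.93 and 4.70 in FLM_G. The ratio was thus highest in FLM_G, without overlap between cultures.

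**Figure D2:**
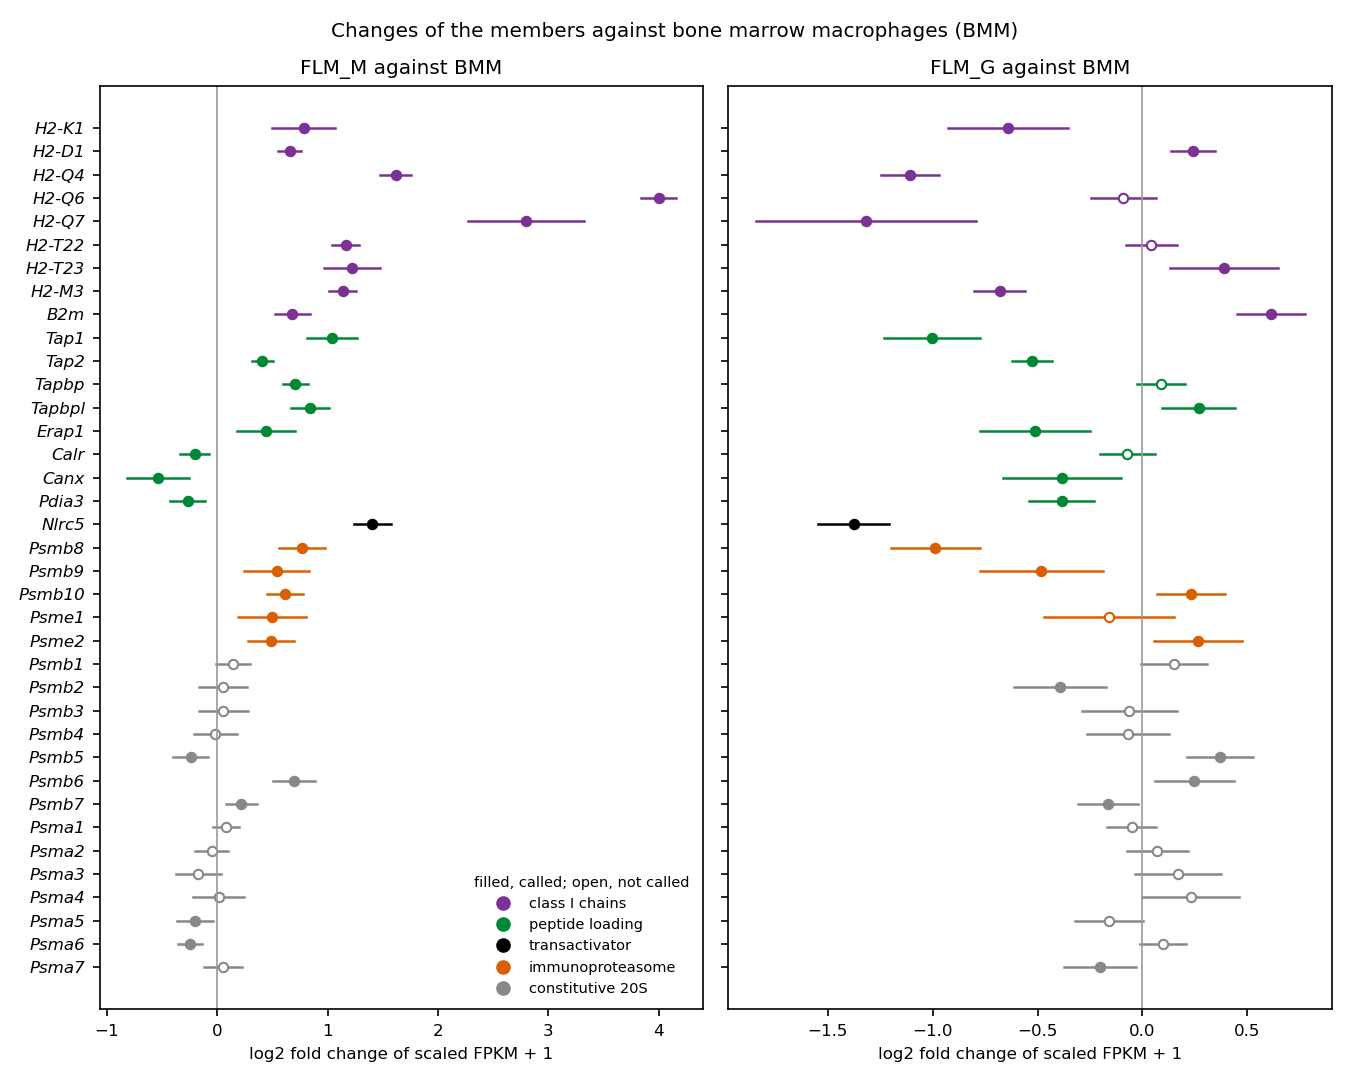
Log2 fold change of scaled FPKM + 1 of each member in FLM_M (left) and FLM_G (right) against BMM, with its 95% interval from limma; filled points passed an adjusted p of 0.05 and open points did not, and the panels have different horizontal scales. All class I and immunoproteasome points lie right of 0 on the left, and lie on both sides of 0 on the right.

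Of the 8 peptide loading genes, the 5 dedicated to class I all rose in FLM_M against BMM, and the 3 general chaperones all fell. The 5 rises held under all 5 scalings, and of the falls that of Canx alone, since Calr was -0.14 without scaling (adjusted p = 0.0876) and -0.038 under quantile normalization (adjusted p = 0.511), and Pdia3 was -0.14 under quantile normalization (adjusted p = 0.147). In FLM_G 1 of the 8 rose against BMM (Tapbpl, not under all 5 scalings) and 5 fell, with a median log2 fold change of -0.38. Of all tested genes 44.6% were called in FLM_M and 68% in FLM_G, both against BMM. The transporter subunit Tap1 measured 5.93, 7.33 and 6.74 in BMM, 14.4, 14.3 and 15.4 in FLM_M, and 2.39, 3.31 and 2.78 in FLM_G. Its partner Tap2 measured 13.2, 13.2 and 13.7 in BMM, 18.3, 18.2 and 17.6 in FLM_M, and 8.94, 9.03 and 8.91 in FLM_G. Both ran FLM_M, BMM, FLM_G without overlap. Tap1 rose by 1.04 (SE 0.10, adjusted p = 4.20e-05) and fell by 1.00 (adjusted p = 2.33e-05), and Tap2 rose by 0.41 (SE 0.04, adjusted p = 6.87e-05) and fell by 0.53 (adjusted p = 5.48e-06). Tap1 per Tap2 was 0.499 ± 0.054 in BMM, 0.816 ± 0.051 in FLM_M and 0.316 ± 0.050 in FLM_G (SD, n = 3), so the subunits of this heterodimer did not keep a constant transcript ratio.

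Tapasin (Tapbp) bridges the transporter and the heavy chain, and its relative Tapbpl (TAPBPR) edits peptides. Tapbp measured 72.4, 68.0 and 70.7 in BMM, 119, 111 and 116 in FLM_M, and 71.1, 77.7 and 76.0 in FLM_G. It rose by 0.71 (adjusted p = 5.80e-06) in FLM_M, while its FLM_G and BMM libraries overlapped. Its FLM_G value of 0.09 (adjusted p = 0.147) became 0.15 with adjusted p = 0.0297 without FLM_G replicate 1. Tapbpl measured 6.39, 6.40 and 6.64 in BMM, 11.9, 12.9 and 12.3 in FLM_M, and 7.05, 8.20 and 8.87 in FLM_G. It rose by 0.84 (adjusted p = 2.96e-05) in FLM_M, and its FLM_G value was 0.27 (adjusted p = 0.0123) with TMM scaling and -0.10 without scaling. The trimming peptidase Erap1 measured 21.7, 19.8 and 19.4 in BMM, 30.2, 25.7 and 28.2 in FLM_M, and 16.8, 13.5 and 11.9 in FLM_G, without overlap. Erap1 rose by 0.44 (adjusted p = 0.0130) and fell by 0.51 (adjusted p = 0.00377). Exons of Erap1 overlap those of Cast on the other strand over 834 bases, Cast stood at 28.1 to 36.7 scaled FPKM in the group means, and whether strand was used for the FPKM is not stated.

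Calreticulin, calnexin and Pdia3 fold many glycoproteins besides class I chains. Canx measured 120, 108 and 109 in BMM, 84.0, 67.8 and 79.8 in FLM_M, and 101, 86.3 and 72.5 in FLM_G, so both fetal cultures lay below BMM. It fell by 0.54 (adjusted p = 0.00708) in FLM_M and by 0.38 (adjusted p = 0.0218) in FLM_G. Without BMM replicate 1 or FLM_G replicates 2 or 3 the FLM_G change of Canx was log2 -0.34, -0.37 and -0.24, with adjusted p of 0.066, 0.059 and 0.082. Pdia3, at 279 to 307 in BMM, 223 to 257 in FLM_M and 213 to 236 in FLM_G, fell in both (log2 -0.27, adjusted p = 0.0118, and log2 -0.39, adjusted p = 0.000969). Calr, at 539 to 581 in BMM, 468 to 517 in FLM_M and 515 to 552 in FLM_G, fell in FLM_M by 0.20 (adjusted p = 0.0192). That call ended without BMM replicates 1 or 2 or FLM_M replicates 1 or 3 (log2 -0.20 to -0.17, adjusted p 0.056 to 0.095). Of 14 other folding and peptide trimming genes, mostly of the endoplasmic reticulum, 0 rose and 5 fell in FLM_M against BMM. In that comparison 44.6% of all tested genes were called. Pdia6, a disulfide isomerase, fell from 79.5 ± 4.6 to 33.3 ± 1.6 (log2 -1.23, adjusted p = 2.78e-07), and Ganab, a trimming glucosidase, fell from 48.2 to 34.6 (log2 -0.47, adjusted p = 0.000139). Against BMM, 3 of the 14 rose and 6 fell in FLM_G, where 68% of all tested genes were called. Pdia4 was 75.6 ± 1.9 in BMM and 121 ± 2.9 in FLM_G (log2 0.67, adjusted p = 1.62e-06).

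On log2(scaled FPKM + 1), Nlrc5, the class I transactivator, had the largest fall of all members in FLM_G against BMM. In the ratio of the group means the low-level gene H2-Q7 fell further, 16.0-fold against 3.64-fold for Nlrc5. Nlrc5 measured 5, 5.7 and 6.16 in BMM, 16.9, 16.3 and 16.3 in FLM_M, and 1.69, 1.5 and 1.44 in FLM_G. No 2 cultures overlapped, and the FLM_M mean was 2.94-fold that of BMM. Nlrc5 rose by 1.41 (SE 0.07, adjusted p = 8.42e-07) in FLM_M and fell by 1.38 (adjusted p = 3.68e-07) in FLM_G, where the 5 scalings gave -1.66 to -1.37. Other factors bind the class I promoter beside Nlrc5. Of 10 tested factors 1 rose and 1 fell in FLM_M against BMM, where 44.6% of all tested genes were called. In FLM_G against BMM 2 rose and 4 fell, where 68% of all tested genes were called. Rfxap, a subunit of the RFX complex on the X box, was 7.49 ± 0.11 in BMM, 9.10 ± 0.93 in FLM_M and 5.90 ± 0.34 in FLM_G, and rose (log2 0.25, adjusted p = 0.0261) and fell (log2 -0.30, adjusted p = 0.00662) against BMM. Rfxank, of the same complex, stood at 2.54 ± 0.43, 3.19 ± 0.19 and 8.16 ± 0.81 and rose in FLM_G (log2 1.37, adjusted p = 3.32e-06). Nfya, which binds CCAAT, fell in FLM_G (log2 -0.46, adjusted p = 0.00381), as did Nfkb1 (log2 -0.37, adjusted p = 0.00215).

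The immunoproteasome was compared with the constitutive subunits in each culture. The counts stand beside 44.6% of all tested genes called in FLM_M against BMM. That share was 68% in FLM_G against BMM and 70.6% in FLM_G against FLM_M. All 5 immunoproteasome and PA28 genes rose in FLM_M, with a median log2 fold change of 0.54, while of 14 constitutive subunits 2 rose, 3 fell and 9 did not pass the test, with a median of 0.03. In FLM_G against BMM 2 of the 5 rose and 2 fell with a median of -0.16, and 2 constitutive subunits rose and 3 fell with a median of 0.01, where the falls but none of the rises held under all 5 scalings. In FLM_G against FLM_M 4 of the 5 fell, Psme2 did not pass the test, and the median was -0.66, while 3 constitutive subunits rose and 5 fell with a median of -0.02, the rises again not under all 5 scalings. The difference of the medians, inducible minus constitutive, was 0.51 for FLM_M against BMM, -0.17 for FLM_G against BMM and -0.63 for FLM_G against FLM_M. Without scaling it was 0.51, -0.16 and -0.63 in the same order, and under quantile normalization 0.49, -0.030 and -0.50. No test was run on these lists.

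Psmb8 (LMP7) carries the inducible chymotrypsin-like site. It measured 35.8, 33.7 and 35.7 scaled FPKM in BMM, 57.3, 66.8 and 57.5 in FLM_M, and 19.7, 15.5 and 16.6 in FLM_G. The cultures did not overlap and the FLM_G mean was 0.29 times that of FLM_M. Psmb8 rose by 0.77 (SE 0.09, adjusted p = 0.000180) in FLM_M and fell by 0.99 (adjusted p = 1.58e-05) in FLM_G. Its constitutive counterpart Psmb5 went the other way. Psmb5 measured 102, 103 and 103 in BMM, 82.3, 94.7 and 83.5 in FLM_M, and 122, 138 and 139 in FLM_G. It fell by 0.24 in FLM_M (adjusted p = 0.0205), with log2 -0.24 to -0.19 and adjusted p of 0.056 to 0.088 without BMM replicate 2 or FLM_M replicates 1 or 3. Its FLM_G value was 0.37 (adjusted p = 0.00132) with TMM scaling and -0.05 without scaling. A processed pseudogene, Gm3375, shares 23.3% of the 101-base stretches of Psmb5.

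Psmb8 was 26.0%, 24.6% and 25.8% of the summed Psmb8 and Psmb5 FPKM in the BMM libraries, 41.1%, 41.3% and 40.8% in FLM_M, and 13.9%, 10.1% and 10.6% in FLM_G. This share within a library does not depend on scaling, and its groups did not overlap. The mean was 15.6 points higher in FLM_M than in BMM and 13.9 points lower in FLM_G than in BMM (difference -13.9). Each of these differences had an exact permutation p of 0.1 (two-sided), the smallest that 3 libraries against 3 can give, and 0.113 after adjustment over the 9 tests on the 3 pairs.

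Psmb9 (LMP2) replaces Psmb6 at the caspase-like site. Psmb9 measured 6.21, 5.73 and 5.60 in BMM, 8.30, 9.77 and 8.76 in FLM_M, and 4.55, 4.37 and 2.94 in FLM_G. It rose by 0.54 (adjusted p = 0.00858) and fell by 0.48 (adjusted p = 0.00893) without overlap. Psmb6 measured 94.0, 96.1 and 95.5 in BMM, 143, 169 and 153 in FLM_M, and 102, 116 and 124 in FLM_G. It was the constitutive subunit that rose most in FLM_M (log2 0.69, SE 0.08, adjusted p = 0.000164). In FLM_G it was 0.25 (adjusted p = 0.0255), -0.17 without scaling, and 0.20 to 0.25 with adjusted p of 0.056 to 0.075 without any 1 BMM replicate or FLM_G replicates 2 or 3. Since Psmb6 rose too, Psmb9 was 5.79% ± 0.36 of the pair in BMM, 5.45% ± 0.03 in FLM_M and 3.42% ± 1.00 in FLM_G (SD, n = 3). The FLM_M share thus lay 0.33 points under that of BMM (difference -0.334) although both genes rose.

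Psmb10 (MECL-1) replaces Psmb7 at the trypsin-like site. Psmb10 measured 35.9, 36.7 and 37.2 in BMM, 53.8, 59.9 and 56.3 in FLM_M, and 38.7, 44.7 and 46.3 in FLM_G. It rose by 0.62 (adjusted p = 0.000138) in FLM_M. Its FLM_G value was 0.23 (adjusted p = 0.0181), -0.18 without scaling, and 0.21 and 0.22 with adjusted p of 0.063 and 0.053 without BMM replicates 1 or 2. Psmb7 measured 99.7, 93.6 and 91.2 in BMM, 102, 119 and 111 in FLM_M, and 84.0, 83.0 and 85.9 in FLM_G. Its changes were small, at log2 0.22 (adjusted p = 0.0205) in FLM_M and -0.17 (adjusted p = 0.0415) in FLM_G. The first lost its call without BMM replicates 2 or 3 or FLM_M replicate 3 (log2 0.18 to 0.23, adjusted p 0.053 to 0.089), and the second without BMM replicates 1 or 2 or any 1 FLM_G replicate (log2 -0.18 to -0.14, adjusted p 0.067 to 0.15). Exons of Psmb7 overlap those of Nek6 on the other strand over 405 bases, and Nek6 stood at 15.1, 20.2 and 52.7 scaled FPKM in BMM, FLM_M and FLM_G. Its part in the Psmb7 values was not tested. Psmb10 was 27.9% ± 1.29 of the pair in BMM, 33.9% ± 0.59 in FLM_M and 33.9% ± 2.01 in FLM_G. Its share was above BMM in every library of both fetal cultures, and FLM_M and FLM_G overlapped (difference -0.0477 points, exact permutation p = 1.0). All other differences of the Psmb9 and Psmb10 shares had the same smallest p of 0.1 (adjusted 0.113).

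**Figure D3:**
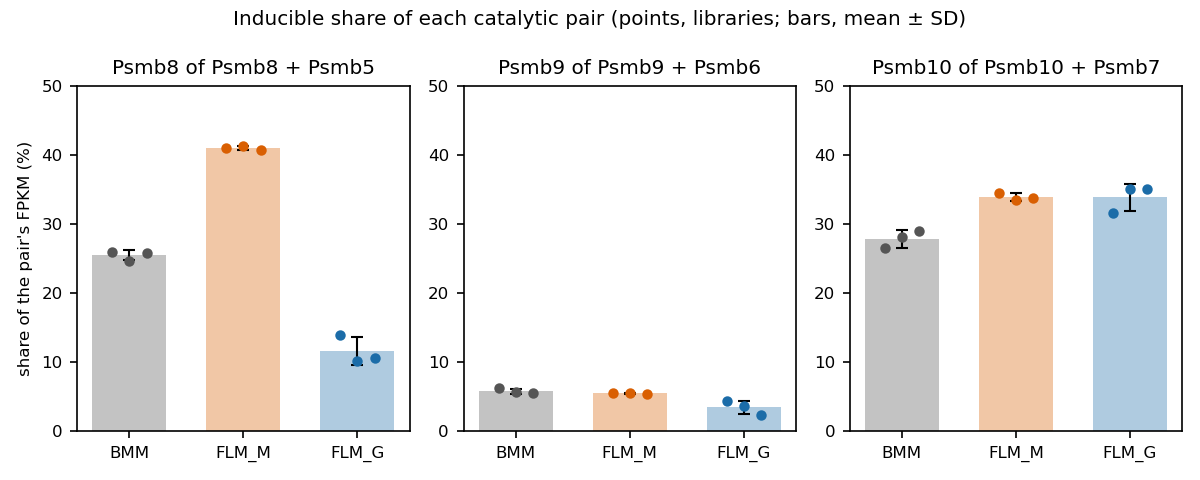
Inducible share of each catalytic pair in percent of the pair's summed FPKM, with 1 point per library and bars at the mean ± SD of 3 libraries. The Psmb8 share runs from 10.1% in FLM_G to 41.3% in FLM_M, the Psmb9 share reaches 6.20% at most, and the Psmb10 share stands above BMM in both fetal cultures.

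The upstream stretches of Psmb8 and Psmb5, the pair whose share moved most between the cultures, are shown with that of Psmb6, the constitutive subunit that rose most in FLM_M, and with the stretch from which Tap1 and Psmb9 are read in opposite directions. The Tap1 to Psmb9 stretch holds the 225 bases between the RefSeq starts of both genes (GRCm38.p6, plus strand as read by Tap1, chr17:34187331-34187555). The others run from base -150 to -1, for Psmb8 at chr17:34198045-34198194 on the plus strand, for Psmb5 at chr14:54617996-54618145 on the minus strand and for Psmb6 at chr11:70525207-70525356 on the plus strand. Capitals mark, in the first stretch, the motifs named for the class I chains and the GAS motif (TTCNNNGAA), and in the others the response element core, GAS and the antioxidant response element (TGACNNNGC), which can include TGACG.
Tap1 to Psmb9: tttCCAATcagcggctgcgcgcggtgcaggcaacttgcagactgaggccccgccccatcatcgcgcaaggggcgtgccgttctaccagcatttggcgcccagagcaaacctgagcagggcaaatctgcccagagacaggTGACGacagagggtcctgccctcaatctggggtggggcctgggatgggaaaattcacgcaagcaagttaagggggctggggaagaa
Psmb8: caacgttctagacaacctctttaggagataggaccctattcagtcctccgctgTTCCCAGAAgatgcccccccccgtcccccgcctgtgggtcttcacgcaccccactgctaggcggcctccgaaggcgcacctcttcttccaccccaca
Psmb5: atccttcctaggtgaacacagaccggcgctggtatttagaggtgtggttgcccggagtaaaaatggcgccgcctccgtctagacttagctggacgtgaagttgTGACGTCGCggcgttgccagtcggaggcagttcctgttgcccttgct
Psmb6: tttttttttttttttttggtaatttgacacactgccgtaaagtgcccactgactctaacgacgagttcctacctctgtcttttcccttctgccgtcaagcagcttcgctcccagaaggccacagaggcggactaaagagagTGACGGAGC
The GAS letters were found in 1 of 9 class I chains (H2-M3), 0 of 6 loading genes, 1 of 5 immunoproteasome genes (Psmb8) and 0 of 11 constitutive subunits, against 8.30% of all promoters. The antioxidant response element letters were found in 2, 2, 0 and 2 members of the same groups, against 12.4% of all promoters, with Psmb5 and Psmb6 as the constitutive members. Tap1 and Psmb9 share the CCAAT and TGACG matches of their common stretch. The GENCODE annotation differs from these RefSeq starts, and in it the exons of both genes overlap over 212 bases.

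Psme1 and Psme2 form the PA28 cap, which opens the 20S particle for peptide release. Psme1 measured 31.9, 29.1 and 33.1 in BMM, 34.8, 53.0 and 48.0 in FLM_M, and 28.9, 26.8 and 28.2 in FLM_G. Its FLM_M replicate 1 lay near the BMM libraries and apart from the other FLM_M libraries. Psme1 rose by 0.50 (SE 0.13, adjusted p = 0.0164) in FLM_M, with 0.44 and 0.45 and adjusted p of 0.061 and 0.056 without BMM replicate 2 or FLM_M replicate 3, and its FLM_G value against BMM was -0.16 (adjusted p = 0.319). Psme2 measured 54.8, 44.4 and 47.6 in BMM, 63.3, 76.2 and 67.6 in FLM_M, and 61.3, 55.6 and 59.4 in FLM_G. It rose by 0.49 (adjusted p = 0.00254) in FLM_M. Its FLM_G value was 0.26 (adjusted p = 0.0313), -0.15 without scaling, and 0.19 to 0.27 with adjusted p of 0.058 to 0.13 without BMM replicates 2 or 3 or FLM_G replicates 1 or 3. Against FLM_M, the FLM_G value of Psme2 was -0.23 (adjusted p = 0.0533), and -0.30 with adjusted p = 0.0266 without FLM_M replicate 1. The gene Psme2b shares 44.2% of the 101-base stretches of Psme2, so its reads could be assigned to either. Psme1 per Psme2 was 0.644 ± 0.058 in BMM, 0.652 ± 0.088 in FLM_M and 0.476 ± 0.006 in FLM_G (SD, n = 3).

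The constitutive subunits moved with the scaling in FLM_G. Their median log2 fold change against BMM was 0.01 with TMM scaling, -0.41 without scaling and -0.24 under quantile normalization, beside 0.03, 0.09 and 0.03 in FLM_M. With TMM scaling the median over all 14 in a library was 83.8 to 85.1 scaled FPKM in BMM, 78.7 to 87.3 in FLM_M and 76.6 to 80.3 in FLM_G, where that of the 5 immunoproteasome genes was 33.7 to 35.8, 53.8 to 59.9 and 26.8 to 28.9. Of the 4 beta subunits without a catalytic site, Psmb1 (124 to 126 in BMM), Psmb3 (45.8 to 46.3) and Psmb4 (49.9 to 53.3) passed the test in no comparison. Psmb1 was 0.14 (95% interval -0.01 to 0.30) in FLM_M against BMM, and 0.22 with adjusted p = 0.0137 without FLM_M replicate 1. Psmb2 measured 119, 103 and 119 in BMM, 121, 121 and 111 in FLM_M, and 75.5, 86.6 and 97.3 in FLM_G. Only FLM_G lay apart, and Psmb2 fell there by 0.39 against BMM (adjusted p = 0.00588) and by 0.45 against FLM_M (adjusted p = 0.00270).

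The 7 alpha subunits form the outer rings and the gate of the particle. In FLM_M against BMM 0 rose and 2 fell, in FLM_G against BMM 0 rose and 1 fell, and in FLM_G against FLM_M 2 rose (Psma3 and Psma6, not without scaling) and 2 fell. Of all tested genes 44.6%, 68% and 70.6% were called in the same order. Psma6 measured 114, 110 and 105 in BMM, 93.6, 90.7 and 92.4 in FLM_M, and 113, 117 and 122 in FLM_G. It fell by 0.25 (SE 0.05, adjusted p = 0.00294) in FLM_M and was 0.35 higher in FLM_G than in FLM_M (adjusted p = 0.000183), which became -0.14 without scaling. Its FLM_G value against BMM, 0.10 (adjusted p = 0.0978), became 0.14 with adjusted p = 0.0359 without FLM_G replicate 1. Psma5, at 54.0 to 54.7 in BMM and 43.1 to 50.0 in FLM_M, fell by 0.20 (adjusted p = 0.0470), a call that ended without any 1 BMM replicate or FLM_M replicates 1 or 3 (log2 -0.22 to -0.13, adjusted p 0.085 to 0.15). Its FLM_G value against BMM was -0.16 (adjusted p = 0.0766), and -0.20 with adjusted p = 0.0281 without FLM_G replicate 1. Psma7, at 26.6 to 28.1 in BMM, 25.5 to 31.0 in FLM_M and 22.1 to 24.9 in FLM_G, fell in FLM_G against BMM by 0.20 (adjusted p = 0.0389) and against FLM_M by 0.25 (adjusted p = 0.0150). The first of these ended without any 1 BMM replicate or FLM_G replicates 2 or 3 (log2 -0.23 to -0.14, adjusted p 0.060 to 0.17), and the second without FLM_G replicates 2 or 3 (log2 -0.19 and -0.23, adjusted p 0.079 and 0.050).

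Psma3, at 18.7 to 23.2 in FLM_M and 25.9 to 29.9 in FLM_G, was 0.34 higher in FLM_G than in FLM_M (adjusted p = 0.00799) and -0.13 without scaling. Psma1, at 75.1 to 83.9 in FLM_M and 71.9 to 74.8 in FLM_G, was lower in FLM_G by a log2 of -0.13 (adjusted p = 0.0437), a call that ended without FLM_M replicates 2 or 3 or any 1 FLM_G replicate (log2 -0.13 to -0.10, adjusted p 0.092 to 0.16). Against BMM the FLM_M value of Psma1 was 0.08 (adjusted p = 0.232), and 0.14 with adjusted p = 0.0312 without FLM_M replicate 1. Psma2 passed the test in no comparison, with log2 values of -0.05, 0.07 and 0.12. Psma4 passed in none either, at 0.01, 0.23 and 0.22, and without FLM_G replicate 2 its values in FLM_G were 0.33 against BMM (adjusted p = 0.0276) and 0.32 against FLM_M (adjusted p = 0.0295). Processed pseudogenes share 27.1% of the 101-base stretches of Psma5, 20.6% of Psma3 and 7.61% of Psma4.

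**Figure D4:**
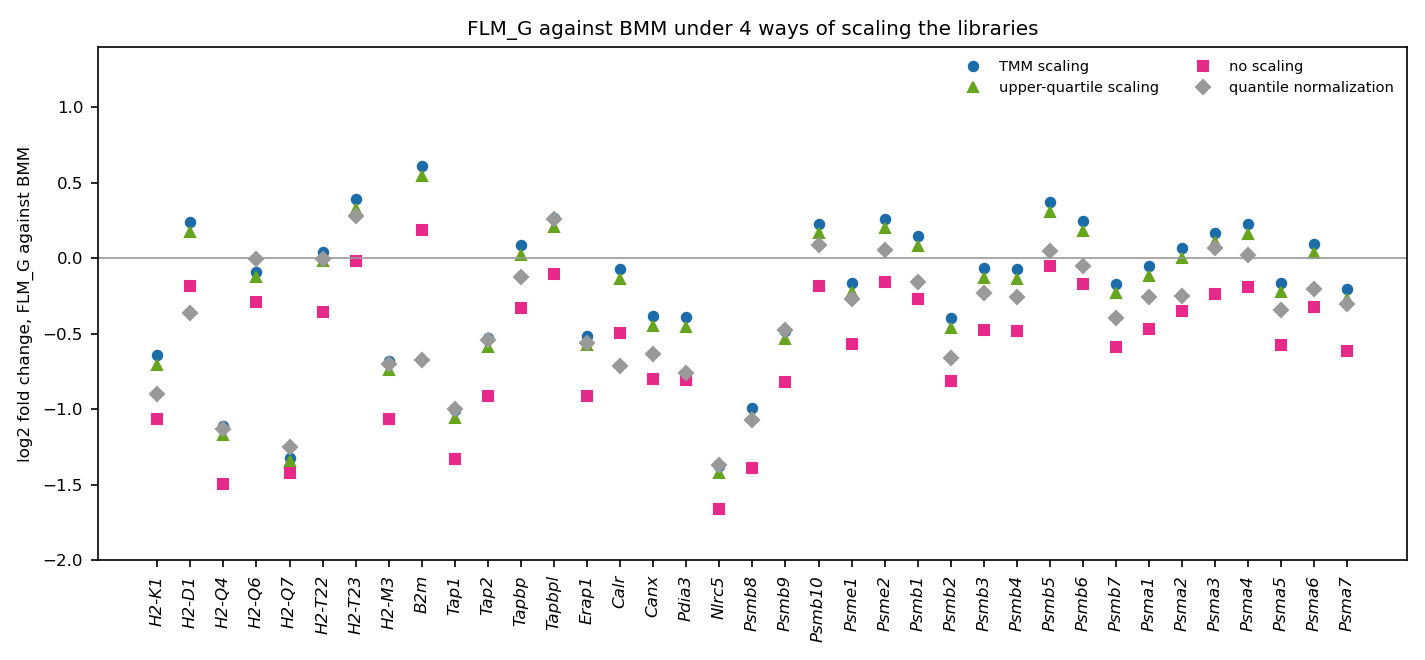
Log2 fold change of FLM_G against BMM for each member under TMM scaling (circles), upper-quartile scaling (triangles), no scaling (squares) and quantile normalization (diamonds). H2-K1, H2-Q4, H2-Q7, H2-M3, Tap1, Tap2, Erap1, Nlrc5, Psmb8 and Psmb9 lie under 0 in all 4, whereas H2-D1, Psmb6 and B2m change sign.

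By the calls against BMM, 11 members were higher in FLM_M and lower in FLM_G, a pattern held by H2-K1, H2-Q4, H2-Q7, H2-M3, Tap1, Tap2, Erap1, Nlrc5, Psmb8, Psmb9 and Psmb7. Of all tested genes 22.7% were higher in FLM_M, and 33.8% were higher and 34.1% lower in FLM_G. The share of all tested genes with each joint pattern was not computed, so the pattern counts describe the members only. All 11 kept both calls under the 5 scalings. Over the scalings the FLM_G value was -1.39 to -0.99 for Psmb8, -0.82 to -0.47 for Psmb9, -1.33 to -1.0 for Tap1 and -1.06 to -0.64 for H2-K1. Another 7 members were called higher in both fetal cultures with TMM scaling (H2-D1, H2-T23, B2m, Tapbpl, Psmb10, Psme2 and Psmb6), but none of their FLM_G calls held under all 5 scalings. Higher in FLM_M and not called in FLM_G were H2-Q6, H2-T22, Tapbp and Psme1.

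The genes of the interferon pathway that were listed with the members moved in both directions, and their shares called were near those of all tested genes (44.6% in FLM_M and 68% in FLM_G against BMM). Genes outside the member list are given with TMM scaling only. Of 16 tested receptors, JAK-STAT genes and interferon regulatory factors, 5 rose and 2 fell in FLM_M against BMM (median log2 0.09), 4 rose and 8 fell in FLM_G against BMM (median -0.13), and 3 rose and 8 fell in FLM_G against FLM_M (median -0.35). Stat2, which carries the signal of the interferon receptors to the nucleus, was 24.1 ± 2.0 in BMM, 63.1 ± 2.9 in FLM_M and 15.3 ± 1.0 in FLM_G, and rose in FLM_M (log2 1.36, adjusted p = 8.38e-07). Irf7, itself an interferon-induced gene, was 21.3 ± 0.81, 57.1 ± 1.6 and 2.52 ± 0.56 in the same order, and had the largest span of the list (log2 1.38 in FLM_M, adjusted p = 7.22e-06, and -2.68 in FLM_G, adjusted p = 3.09e-08). Irf9 was 11.8 ± 0.51, 16.6 ± 0.25 and 6.34 ± 0.85. The receptor chain Ifnar1 was 23.9 ± 0.51, 20.9 ± 0.99 and 7.28 ± 0.43, and fell in FLM_G (log2 -1.59, adjusted p = 1.94e-08). The kinase Tyk2, named after its values were seen, went the other way, at 13.2 ± 0.49, 14.1 ± 0.49 and 22.4 ± 0.66, and rose in FLM_G (log2 0.72, adjusted p = 1.80e-06).

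Other genes of the proteasome were also read beside all tested genes, of which 44.6% were called in FLM_M and 68% in FLM_G, both against BMM. Of the 21 genes of the 19S regulatory particle, which recognises and unfolds ubiquitinated proteins, 6 rose and 4 fell in FLM_M against BMM (median log2 0.04), and 3 rose and 11 fell in FLM_G (median -0.26), where 68% of all tested genes were called. Psmc1, an ATPase of its base, was 112 ± 7.2 in BMM, 69.3 ± 2.1 in FLM_M and 69.1 ± 1.2 in FLM_G, and fell in both (log2 -0.68, adjusted p = 1.11e-05, and log2 -0.69, adjusted p = 4.48e-06). Psmd10 (gankyrin), which helps to assemble that base, was 14.2 ± 0.76, 18.1 ± 1.7 and 44.9 ± 3.2, and rose in both (log2 0.32, adjusted p = 0.00961, and log2 1.59, adjusted p = 1.93e-07). Psmc3 and Psmc6 fell in FLM_G by 0.61 (adjusted p = 8.47e-06) and 0.57 (adjusted p = 0.000106). Of 9 tested assembly factors, other caps and inhibitors 3 rose and 2 fell in FLM_M, and 0 rose and 2 fell in FLM_G. The assembly chaperone Psmg2 was 14.2 ± 0.42 in BMM, 19.3 ± 1.3 in FLM_M and 12.0 ± 0.80 in FLM_G, and passed the test in both (log2 0.42, adjusted p = 0.000960, and log2 -0.23, adjusted p = 0.0134). Psme4, the PA200 cap, fell in both (log2 -0.36, adjusted p = 0.00811, and log2 -0.38, adjusted p = 0.00337).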

How the data were processed

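RNA of 9 macrophage libraries (TruSeq stranded mRNA kit, 101 cycles from 1 end, per the labels' protocols) is given in 2 tables. The authors deposited whole-number read counts per gene without normalization, and FPKM per gene. The submitters' processing notes list, with no versions, HISAT2, StringTie, DESeq2, cutadapt, FastQC and bcl2fastq, and as builds GRCm38 and mm10. The step behind each table and its strand setting are not given in the sources used here. The deposited counts summed to 782400 to 1170813 per library, 36.1% of them in genes under 0.5 FPKM. Of 1345 genes under 0.5 FPKM with at least 10 counts, 57.8% were overlapped by an opposite-strand gene of at least 5 FPKM, against 5.37% of all genes under 0.5 FPKM. The members' counts were a median 0.652% of the reads their FPKM imply. The FPKM were therefore the measure used, and edgeR 4.0.16 and DESeq2 1.42.0 on the counts were alternatives.

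FPKM were scaled by TMM factors (0.80 to 1.14), and the 11952 genes that reached 1 FPKM in 3 or more libraries entered limma 3.58.1 (trend, R 4.3.3) as log2(scaled FPKM + 1), with 1 mean for each group and all 9 libraries in the fit. A gene was called where its p, adjusted over all genes tested by Benjamini-Hochberg, lay under 0.05. All 37 members passed the filter. Shares and ratios were computed within each library. The shares of the catalytic pairs were compared by exact permutation tests over libraries, and the ratios were not tested. All members are named, and from each list of related genes up to 4 called genes per comparison with the largest change and at least 5 scaled FPKM. Some genes that this rule names are not reported here. The list of members (matched by name alone) and the lists of related genes were chosen with earlier results of these data known. Alternatives were 4 other scalings (RLE, upper quartile, none, quantile normalization), no filter, a filter of 5 FPKM, 0.1 as pseudocount, a fit to the 6 libraries of each comparison, a replicate block, a test against a 1.5-fold change, and each library left out. The fitting step was tested on simulated data. Transcript overlaps are from GENCODE M21 (GRCm38), in which 45143 identifiers were found, and promoters from RefSeq (GRCm38.p6). Motifs were searched on both strands. The precision of FPKM is limited by depth, and no counting intervals are given for them.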

Additional observations from a re-analysis of the deposited data

How the results depend on the processing

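On the deposited counts edgeR called 1300 of 7490 tested genes in FLM_M against BMM, 2458 in FLM_G against BMM and 2855 in FLM_G against FLM_M. DESeq2 called 844, 2210 and 2638 genes in the same order. For the other settings the share of all genes called was not computed. The 22 members called higher in FLM_M than in BMM became 8 in a test against a 1.5-fold change, 13 with edgeR and 9 with DESeq2 on the low counts (20 to 24 without 1 library), and the 6 lower became 0, 0 and 0 (3 to 6). The 8 higher in FLM_G than in BMM became 5 with upper-quartile scaling, 1 without scaling, 1 with quantile normalization, 5 without a filter, 0 against 1.5-fold, 2 with edgeR and 0 with DESeq2 (4 to 9 without 1 library). The 15 lower became 30 without scaling, 24 with quantile normalization, 5 against 1.5-fold, 2 with edgeR and 1 with DESeq2 (12 to 15). For FLM_G against FLM_M the 3 higher became 0 without scaling, 0 against 1.5-fold and 0 with DESeq2 (3 to 4), and the 23 lower became 35 without scaling, 12 against 1.5-fold, 10 with edgeR and 12 with DESeq2 (21 to 25). Called immunoproteasome genes in FLM_M against BMM went from 5 to 0 against 1.5-fold, 3 with edgeR and 0 with DESeq2 (4 to 5). In FLM_G against BMM they went from 4 to 2 with upper-quartile scaling, 2 with quantile normalization, 2 without a filter and 1 each against 1.5-fold, with edgeR and with DESeq2 (2 to 4), and in FLM_G against FLM_M from 4 to 2 against 1.5-fold (4 to 5). Called constitutive subunits went from 5 to 0, 2 and 0 (1.5-fold, edgeR, DESeq2; 2 to 5 without 1 library) in FLM_M against BMM, from 5 to 11 without scaling, 9 with quantile normalization, 0 against 1.5-fold, 1 with edgeR and 0 with DESeq2 (2 to 6) in FLM_G against BMM, and from 8 to 0, 2 and 0 (6 to 8) in FLM_G against FLM_M. The immunoproteasome minus constitutive median in FLM_M against BMM was 0.57 with a pseudocount of 0.1, 0.43 with edgeR and 0.44 with DESeq2 (0.51 to 0.58 without 1 library). In FLM_G against BMM it was -0.030 with quantile normalization, -0.44 with edgeR and -0.42 with DESeq2 (-0.22 to -0.14), and in FLM_G against FLM_M -0.50 with quantile normalization and -0.53 with DESeq2 (-0.74 to -0.57). With 1 FPKM added, the Psmb9 share was 6.64% in BMM and 5.99% in FLM_M. Over all groups the correlation of deviations was -0.08 to 0.09 for same replicate numbers and -0.10 to 0.07 for different numbers. Between BMM and FLM_G it was 0.053 to 0.090 for same numbers and -0.051 to -0.023 for different numbers. In the other pairings of groups the same-number values had both signs. Whether the numbers pair the libraries was thus not settled. A replicate block left 3 of the 5 constitutive calls in FLM_G against BMM and ended 5 of the members' calls. Counting only members called in at least 1 of both fits, in FLM_G against BMM the sign turned without scaling for H2-D1 (-0.18), H2-T22 (-0.35), H2-T23 (-0.019), Tapbp (-0.33), Tapbpl (-0.10), Psmb10 (-0.18), Psme2 (-0.15), Psmb1 (-0.27), Psmb5 (-0.050), Psmb6 (-0.17), Psma2 (-0.35), Psma3 (-0.24) and Psma6 (-0.32), and with quantile normalization for H2-D1 (-0.36), B2m (-0.67), Psmb1 (-0.15), Psmb6 (-0.052), Psma2 (-0.25) and Psma6 (-0.20). In FLM_G against FLM_M it turned without scaling for Calr (-0.36), Canx (-0.33), Psmb1 (-0.48), Psma2 (-0.36), Psma3 (-0.13), Psma4 (-0.26), Psma5 (-0.43) and Psma6 (-0.14), and with quantile normalization for Calr (-0.67), Psmb1 (-0.39) and Psma2 (-0.27). On the counts (edgeR, then DESeq2 where it turned too) the sign turned for Calr (0.047), Pdia3 (0.35, 0.27), Psma5 (0.41, 0.35) and Psma6 (0.21, 0.12) in FLM_M against BMM, for Psmb2 (0.10, 0.028), Psmb7 (0.78, 0.74) and Psma7 (0.70, 0.64) in FLM_G against BMM, and for Psmb7 (0.31, 0.35) in FLM_G against FLM_M. The cause of these changes was not tested. Of the members' 77 calls over the 3 comparisons 14 were lost without at least 1 library, 11 others were gained and 0 turned.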

Other observations

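Class I and class I-like genes outside the member list showed both orders of the cultures. Of 9 tested genes on this list, 5 rose and 3 fell in FLM_M against BMM, and 4 rose and 3 fell in FLM_G against BMM. In FLM_G against FLM_M, 4 rose and 5 fell. Of all tested genes 44.6%, 68% and 70.6% were called in the same order. The counts of the list include H2-Ke6, which lies in the MHC region but is not a class I gene. H2-Ke6 fell in FLM_M against BMM (limma log2 -0.43, adjusted p = 0.00261) and was higher in FLM_G than in FLM_M (log2 0.60, adjusted p = 0.000150). The Qa gene H2-Q5 was 1.31 ± 0.21 scaled FPKM in BMM, 12.3 ± 1.2 in FLM_M and 0.547 ± 0.088 in FLM_G (SD, n = 3), and rose in FLM_M (limma log2 2.52, adjusted p = 8.82e-08). H2-T24 was 6.24 ± 0.62, 19.2 ± 2.8 and 3.19 ± 0.81 in the same order and rose in FLM_M (log2 1.47, adjusted p = 8.52e-05). These share sequence with relatives among the members.

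H2-M2, Cd1d1 and Mr1 stood highest in FLM_G. H2-M2, a nonclassical heavy chain, was 0.066 ± 0.041 in BMM, 2.90 ± 0.35 in FLM_M and 32.8 ± 2.4 in FLM_G (log2 4.98 in FLM_G against BMM, adjusted p = 1.50e-10). Cd1d1, which presents lipids, was 1.98 ± 0.21, 0.124 ± 0.033 and 7.52 ± 1.6 and rose in FLM_G (log2 1.5, adjusted p = 8.22e-06). Mr1, which presents microbial metabolites, was 2.23 ± 0.30, 1.27 ± 0.04 and 12.3 ± 0.80 and rose in FLM_G (log2 2.04, adjusted p = 3.57e-08). Fcgrt, the heavy chain of the neonatal Fc receptor that pairs with B2m, was 11.8 ± 0.64 in BMM, 45.7 ± 1.1 in FLM_M and 38.8 ± 2.1 in FLM_G. It rose in both (log2 1.87, adjusted p = 2.69e-08, and log2 1.64, adjusted p = 1.80e-08), and was lower in FLM_G than in FLM_M (log2 -0.23, adjusted p = 0.00562).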
